A study of Mus musculus with 4 samples.

Results

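The clustered protocadherins are neighbouring genes on mouse chromosome 18 that encode cadherin-like cell adhesion proteins. They were taken here as every gene whose symbol begins with Pcdha and a number or c, Pcdhb and a number, or Pcdhg followed by a, b or c and a number. This rule found 59 of the 20032 genes in the deposited table, 15 in the alpha cluster, 22 in the beta cluster and 22 in the gamma cluster. All 59 are present in the table, and 54 of them averaged 1 FPKM or more (fragments scaled by transcript length and by library size) and were tested.

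The 4 RNA-seq libraries came from whole olfactory bulb of mice at postnatal day 11, 2 of DCKO mice and 2 of littermates without Cre. In DCKO mice both target genes were floxed (Sp8 Flox/Flox together with Sp9 Flox/Flox), and the mice also carried Dlx5/6-CIE. This is a transgene in which a Dlx5/6 enhancer drives Cre in precursors of GABAergic neurons. All mice were at the same age on a mixed background of C57BL/6J, 129S6 and CD1, and the labels do not say which Sp8 and Sp9 alleles the controls carried. Nor do they say whether the replicates came from separate animals or pools, so the p-values describe only how far these libraries spread, which may be technical.

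Clustered protocadherins form complexes on the cell surface that bind only to matching complexes on another cell. In most neurons each cell switches on a few alpha, beta, gamma A and gamma B isoforms by promoter choice, while the C-type isoforms at the end of the alpha and gamma clusters are expressed more uniformly. The combination gives a neuron an identity by which its own branches recognise and avoid each other, and in the olfactory system it helps the axons of sensory neurons to sort. An alpha or gamma transcript joins 1 variable first exon, which encodes the extracellular and transmembrane part, to constant exons that all members of the cluster share. Each beta gene is a single exon with no constant part.

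In GENCODE M21 (GRCm38) the alpha cluster runs from 36930184 to 37187661 on chromosome 18, the beta cluster from 37264938 to 37524479 and the gamma cluster from 37661793 to 37841873, all on the + strand. The shared exons limit how far reads can be given to 1 member. Among 58 members with a matched gene model, the share of 50-base windows that also occur in another member had a median of 60.02% in the alpha cluster (48.2% to 98.4%) and 44.8% in the gamma cluster (41.2% to 54.2%). In the beta cluster it was 4.26% (0% to 11.99%). Within the variable first exon alone the median was 15.1% in alpha and 0.601% in gamma. Pcdha4-g, which RefSeq lists as a synonym of a gene spanning from the alpha to the gamma cluster, shares 100% of its first exon windows with other members.

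The deposited values show the same division. The columns headed count are fragments multiplied by 1 factor per library, and after removal of that factor 98.7% to 98.9% of the values above 0 over all genes lay within 0.05 of a whole number of fragments. All beta values above 0 were whole in every library, 22 in 3 libraries and 21 in DCKO replicate 2. In the alpha cluster only 2 to 3 of 15 values per library were whole, and in the gamma cluster 2 to 7 of 22. The alpha and gamma members added together came back to whole numbers in every library, 18877 and 19975 fragments in control bulbs against 16849 and 18528 in DCKO bulbs, each within 0.013 of a whole number. The alpha sum alone was 3979.81 fragments in control replicate 1 and 3140.47 in DCKO replicate 2. The gamma sum alone was 14897.19 and 15387.53 fragments in the same libraries. In control replicate 2 the gamma sum lay 0.044 from a whole number, within the tolerance, and the alpha sum 0.056. Values of single alpha and gamma members, and the split of fragments between the alpha and gamma clusters, are reported as uncertain for this reason.

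**Figure D1:**
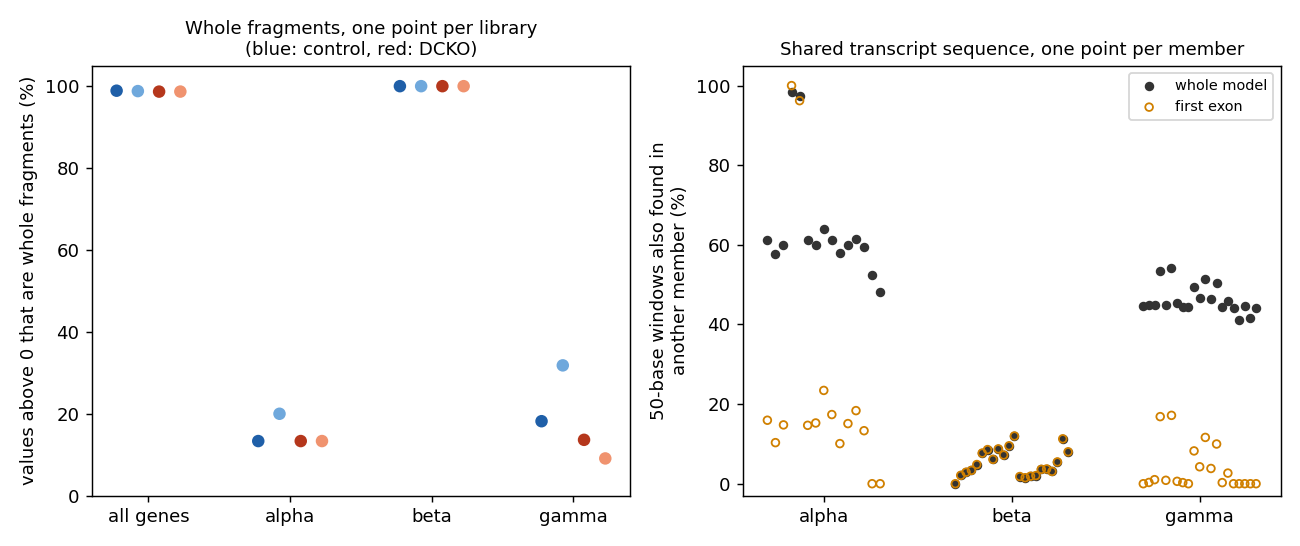
Left, percent of values above 0 that are whole fragments in each library (4 points per group, blue control and red DCKO), for all genes and for each cluster; right, percent of 50-base windows of each member's gene model that also occur in another member, for the whole model (filled) and the first exon (open). Beta values are all whole and share at most 11.99% of windows, while alpha and gamma models share at least 41.2%.

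The targeted genes were checked first. Sp8, a zinc finger transcription factor, stood at 32.0 and 26.7 FPKM in control bulbs against 1.68 and 2.03 in DCKO bulbs. Its paralogue Sp9 stood at 24.0 and 30.7 FPKM in control bulbs against 0.0674 and 0.236 in DCKO bulbs. The scaled fragment counts summed to 14632502 to 15400982 per library. Mitral and tufted cell genes and granule cell genes, the defining markers of the tissue, were above 0 in all libraries. This hardly checks the tissue label, because 17533 to 18356 of the 20032 genes were above 0 in each library. The 5 olfactory sensory neuron markers summed to 152.9 FPKM in control replicate 1 and to 45.5, 55.2 and 45.8 FPKM in control replicate 2 and DCKO replicates 1 and 2. Control replicate 1 therefore stands apart, and the ratios of the cluster sums are given below with and without it.

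The summed level of each cluster was lower in both DCKO libraries than in both controls. The alpha cluster summed to 35.1 and 36.1 FPKM in control replicates 1 and 2 and to 23.8 and 25.7 FPKM in DCKO replicates 1 and 2, a mean ratio of 0.694. The beta cluster summed to 57.4 and 54.7 FPKM in control bulbs against 36.3 and 33.9 in DCKO bulbs, a mean ratio of 0.626. The gamma cluster summed to 162.3 and 160.7 FPKM in control bulbs against 143.3 and 143.8 in DCKO bulbs, a mean ratio of 0.889. Pcdhgc3 was its largest member, at 38.6% and 35.8% of the gamma sum in control bulbs against 47.3% and 46.5% in DCKO bulbs. That member was higher in both DCKO libraries. Without it the gamma sum was 99.6 and 103.2 FPKM in control bulbs against 75.4 and 76.9 in DCKO bulbs, a ratio of 0.751. The controls did not overlap the DCKO libraries in any of these sums. The alpha and gamma sums carry the uncertainty of how fragments were split between those clusters. With 2 libraries against 2 an exact permutation test cannot give a p-value below 0.333, and no test was made on the sums.

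**Figure D2:**
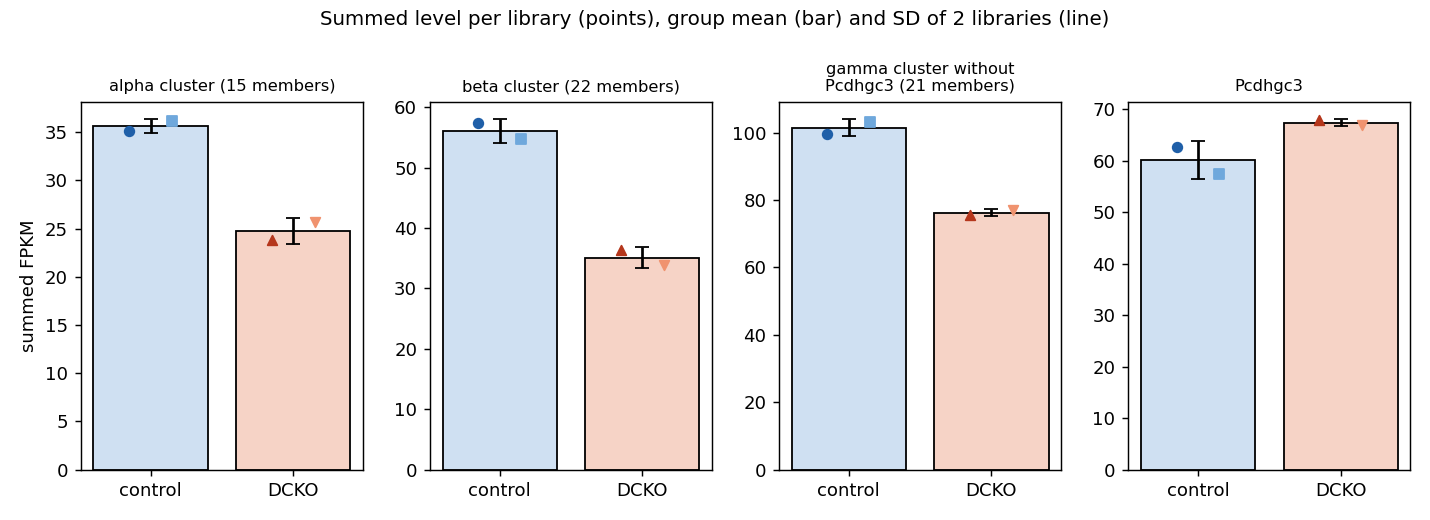
Summed FPKM of the alpha cluster, the beta cluster and the gamma cluster without Pcdhgc3, and FPKM of Pcdhgc3 alone, in control and DCKO, with points for single libraries, bars for the mean and lines for the SD of 2 libraries. The first 3 sums are lower in both DCKO libraries, while Pcdhgc3 stands at 67.8 and 66.9 FPKM in DCKO and 62.7 and 57.5 FPKM in the controls.

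Single members were tested in a limma fit over all 13434 genes that averaged 1 FPKM or more, on log2(FPKM + 1), which understates the change of genes as low as most of these. Of the 54 tested members, 14 fell (25.9%) and 1 rose (1.85%) at a Benjamini-Hochberg adjusted p below 0.05. Over all tested genes 14.3% fell, 13% rose and 27.3% passed in either direction. These shares belong to this fit only, and the counts from other fits are given without one. The members' median log2 change was -0.37, beside -0.02 over all tested genes. At an unadjusted p below 0.05, 32 members were lower (59.3%) and 1 higher, beside 22.3% of all tested genes lower. Both DCKO libraries lay below both controls for 45 of the 54 (83.3%), beside 37.6% of all tested genes, and above both for 4, beside 33.9%. Alpha and gamma members share exons and hold divided fragments, so in these counts they are not separate observations. Fewer members fell whichever library was left out, but a fit with 1 library fewer also has less power. Dependence on a single library therefore cannot be read from that drop. Without control replicate 1 the ratio of summed FPKM, DCKO over control, was 0.6845 for alpha, 0.6419 for beta and 0.8934 for gamma.

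Over all 59 members, tested or not, the mean of the DCKO libraries was lower for 53 and higher for 6, while 51.8% of all tested genes had a log2 change below 0. The 5 members below the filter were Pcdha8, Pcdhac1, Pcdhb1, Pcdhb2 and Pcdhgb8. Most members sat at low levels, with a median over the 59 of 2.15 FPKM.

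**Figure D3:**
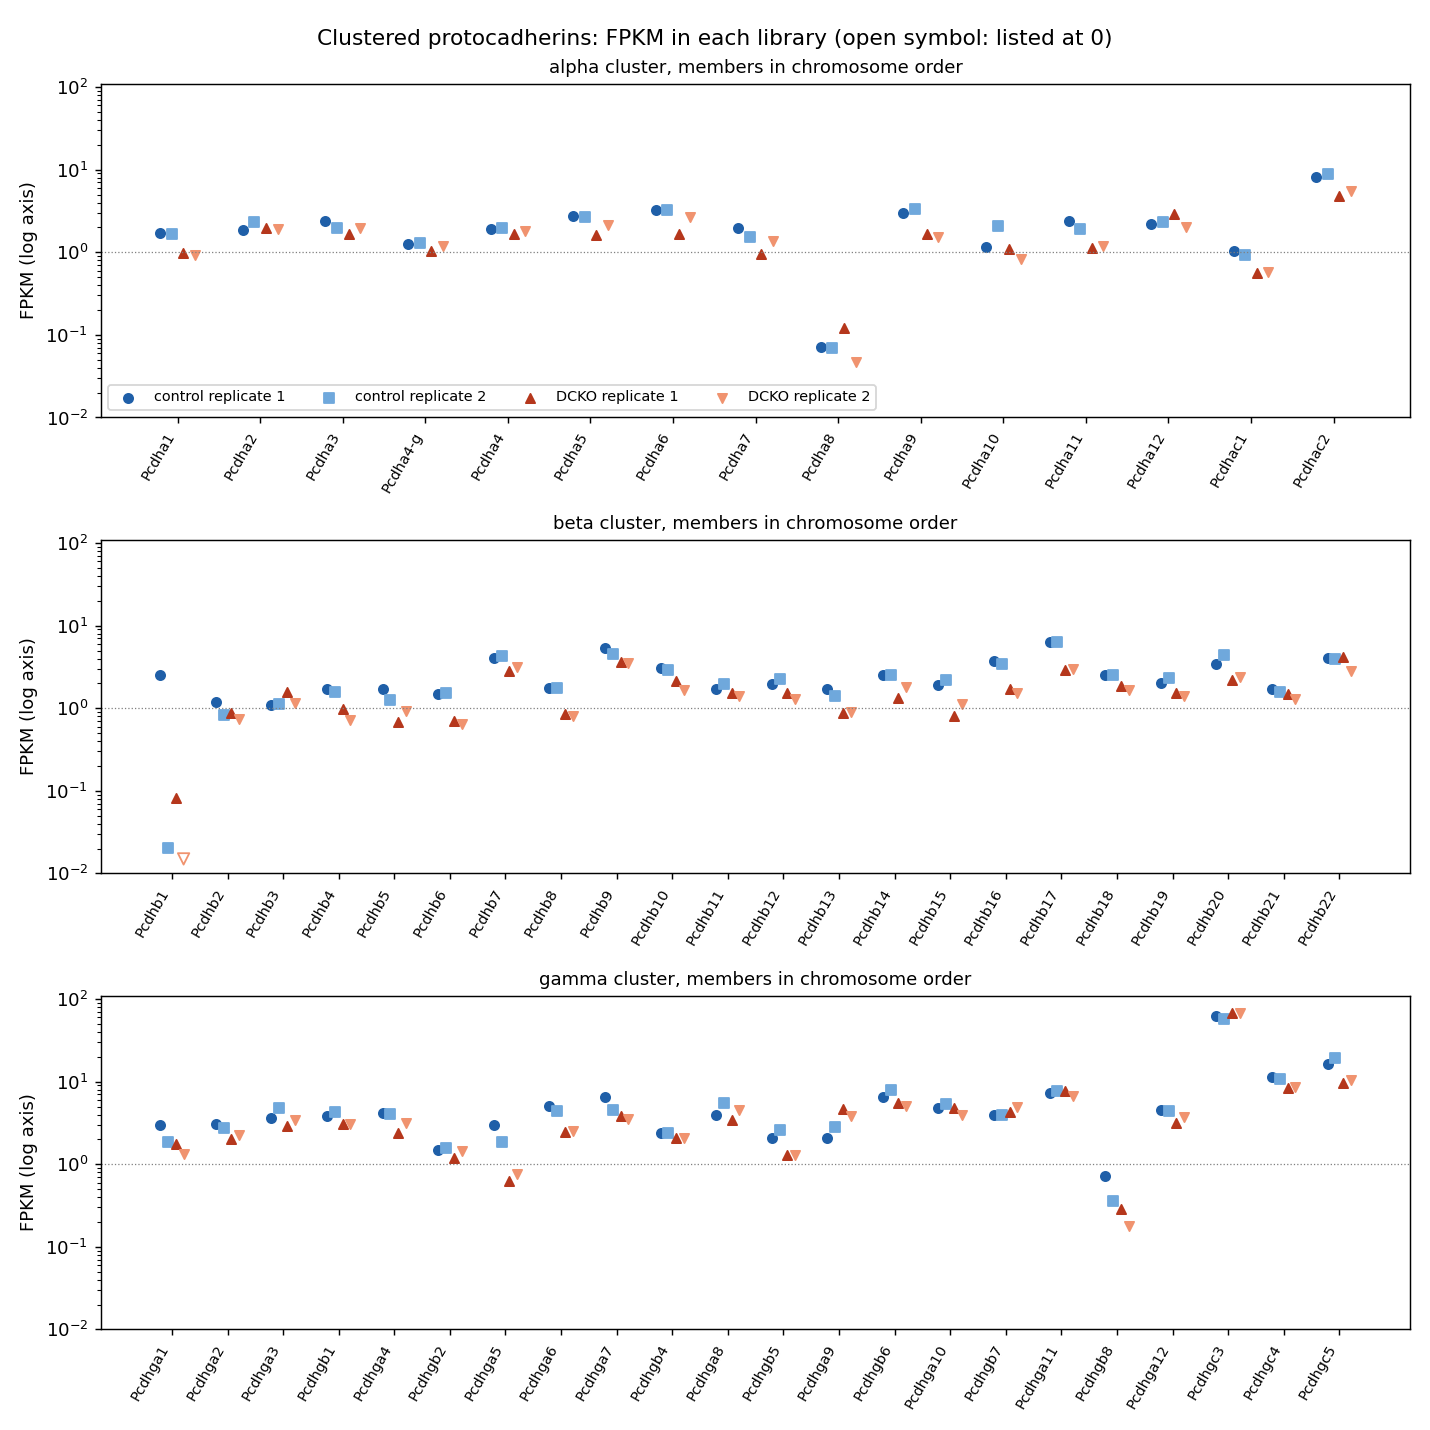
FPKM of each of the 59 members in each library, on a log axis, by cluster in chromosome order, with controls in blue, DCKO in red, an open symbol for a value listed at 0 and a dotted line at 1 FPKM. DCKO symbols lie below the control symbols for most members, with Pcdhga9, Pcdhgb7 and Pcdhgc3 among the exceptions.

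The beta cluster, whose values were all whole fragments, had a lower mean in DCKO for 21 of its 22 members. Its gene models share at most 11.99% of windows with other members, and how such reads were treated is not known. Of its 20 tested members 6 fell (30%) and none rose, beside 14.3% and 13% of all tested genes. The median log2 change was -0.44. At an unadjusted limma p below 0.05, 16 were lower (80%), beside 22.3% of all tested genes. Beta protocadherins lack a constant cytoplasmic part and join alpha and gamma proteins in the recognition complexes.

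Pcdhb17 (chromosome 18, 37484795 to 37489454) had the highest mean of the cluster over the 4 libraries and its largest decrease on the log2(FPKM + 1) scale. By ratio of means Pcdhb6 and Pcdhb16 were lower still among the tested members, and over the DCKO libraries alone Pcdhb9, Pcdhb22 and Pcdhb7 had higher means. It stood at 6.31 and 6.43 FPKM in control replicates 1 and 2 and at 2.91 and 2.98 FPKM in DCKO replicates 1 and 2, from 375, 407, 182 and 195 fragments. The libraries of each genotype lay close together and the groups were far apart. The mean was 2.16-fold lower (log2 change -0.90, SE 0.09, 95% confidence interval -1.13 to -0.67, limma adjusted p = 0.00478).

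Its neighbour Pcdhb16 (37477814 to 37483038) stood at 3.71 and 3.41 FPKM in control bulbs against 1.72 and 1.53 in DCKO bulbs, a 2.19-fold lower mean (log2 change -0.80, SE 0.11, limma adjusted p = 0.0120). Both genes kept their calls in each of the 12 alternatives that tested them, with a highest adjusted p of 0.0222 for Pcdhb17 and 0.0352 for Pcdhb16. No other beta member did so.

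The remaining 4 beta members that fell had fewer fragments behind them or a wider spread. Pcdhb8 stood at 1.76 and 1.76 FPKM in control bulbs against 0.840 and 0.805 in DCKO bulbs, from 66, 68, 33 and 34 fragments (log2 change -0.60, limma adjusted p = 0.0322). Pcdhb6 stood at 1.49 and 1.53 FPKM in control bulbs against 0.707 and 0.643 in DCKO bulbs, from 58, 62, 29 and 28 fragments (log2 change -0.58, adjusted p = 0.0390 by limma). Both were about as far apart between genotypes as Pcdhb17 by ratio of means, at 0.468 and 0.447 against 0.463. Pcdhb15 stood at 1.90 and 2.18 FPKM in control bulbs against 0.812 and 1.13 in DCKO bulbs (log2 change -0.63, limma adjusted p = 0.0403). Pcdhb20 stood at 3.41 and 4.37 FPKM in control bulbs against 2.22 and 2.39 in DCKO bulbs (log2 change -0.56, limma adjusted p = 0.0399). Pcdhb6 and Pcdhb8 lost their calls when any 1 library was left out (limma adjusted p of at most 0.0975 and 0.0835). Pcdhb15 kept its call only without DCKO replicate 2 (0.0485) and Pcdhb20 only without control replicate 1 (0.0385), both by limma.

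The beta members without a call were mostly lower as well. Pcdhb9 stood at 5.32 and 4.58 FPKM in control bulbs against 3.65 and 3.51 in DCKO bulbs (log2 change -0.37, 95% confidence interval -0.65 to -0.10, limma adjusted p = 0.0577). Pcdhb22, the last gene of the cluster, stood at 4.02 and 3.93 FPKM in control bulbs against 4.16 and 2.80 in DCKO bulbs (log2 change -0.17, limma adjusted p = 0.483). Its groups overlapped, and without DCKO replicate 2 the log2 change was 0.05. Pcdhb3, picked out after its values were seen, was the 1 beta member with a higher mean in DCKO, at 1.10 and 1.11 FPKM in control bulbs against 1.56 and 1.15 in DCKO bulbs (log2 change 0.16, limma adjusted p = 0.477), without overlap.

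Pcdhb1, the first gene of the cluster (37264938 to 37267525), differed between the controls rather than between genotypes; it too was picked out after its values were seen. It had 118 fragments in control replicate 1 against 1 in control replicate 2, 4 in DCKO replicate 1 and 0 in DCKO replicate 2. That is 2.53 FPKM in the first library and at most 0.0828 FPKM in the others. The library with the high value is the one with high olfactory sensory neuron markers, in which Omp stood at 98.4 FPKM against 20.1 to 31.5 and Cnga2 at 10.2 against 0.206 to 0.303. Their part in the Pcdhb1 value was not tested. Without Pcdhb1 the beta cluster summed to 54.9 and 54.7 FPKM in control bulbs against 36.2 and 33.9 in DCKO bulbs, a ratio of 0.640.

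In the alpha cluster, 3 of 13 tested members fell (23.1%) and none rose, beside 14.3% and 13% of all tested genes. The median log2 change of the tested members was -0.38. Alpha proteins share a constant cytoplasmic tail that binds and inhibits the kinases FAK and Pyk2 and acts through the WAVE complex on actin. Pcdhac2 (37143503 to 37187657), the C-type isoform that serotonergic axons need to spread evenly, was the most abundant member. It stood at 8.16 and 8.78 FPKM in control bulbs against 4.78 and 5.45 in DCKO bulbs, without overlap. Its mean was 1.66-fold lower (log2 change -0.63, SE 0.10, 95% confidence interval -0.88 to -0.38, limma adjusted p = 0.0135).

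The other C-type isoform, Pcdhac1, did not reach the filter, with 1.03 and 0.936 FPKM in control bulbs against 0.555 and 0.578 in DCKO bulbs. Pcdha9 fell from 2.97 and 3.34 FPKM to 1.65 and 1.52 (log2 change -0.68, SE 0.12, limma adjusted p = 0.0178). Pcdha11 fell from 2.36 and 1.92 FPKM to 1.14 and 1.19 (log2 change -0.53, SE 0.14, limma adjusted p = 0.0472). These 3 calls were all lost without control replicate 2, where the adjusted p was 0.0606 for Pcdhac2, 0.0681 for Pcdha9 and 0.0673 for Pcdha11 (limma). Pcdha11 also lost its call without any 1 of the other libraries, with an adjusted p of up to 0.156 by limma.

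The alpha members did not all move alike. Pcdha6, with the second highest mean of the cluster, stood at 3.28 and 3.25 FPKM in control bulbs against 1.64 and 2.70 in DCKO bulbs (limma adjusted p = 0.136), so that the DCKO libraries differed more than the controls. Pcdha12, picked out after its values were seen, stood at 2.22 and 2.30 FPKM in control bulbs against 2.90 and 2.05 in DCKO bulbs (log2 change 0.08, 95% confidence interval -0.32 to 0.48, limma adjusted p = 0.718), and its log2 change was -0.10 without DCKO replicate 1. Pcdha8 was near 0 in every library, at 0.0708 and 0.0684 FPKM in control bulbs against 0.119 and 0.0471 in DCKO bulbs.

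The gamma cluster held the most abundant members and, among tested members on the log2(FPKM + 1) scale, the widest range of change. Of 21 tested members 5 fell (23.8%) and 1 rose (4.76%), beside 14.3% and 13% of all tested genes. The median log2 change over the tested members of the cluster was -0.32. Its 3 C-type isoforms had the highest levels of all 59 members. They made up 55.7% and 54.5% of the summed gamma FPKM in control bulbs against 59.9% and 59.6% in DCKO bulbs.

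Pcdhgc5 (37819513 to 37841873), an isoform that rises in the postnatal brain and binds GABA-A receptors, stood at 16.3 and 19.4 FPKM in the controls. In DCKO it stood at 9.67 and 10.3 FPKM. The groups did not overlap, and the mean was 1.78-fold lower (log2 change -0.77, SE 0.10, 95% confidence interval -1.04 to -0.50, limma adjusted p = 0.0101). This call held in all 13 alternatives, with a highest adjusted p of 0.0444.

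Pcdhgc4 (37815079 to 37841873), the isoform on which neuronal survival depends most, stood at 11.4 and 10.7 FPKM in control bulbs against 8.36 and 8.52 in DCKO bulbs. Its decrease was smaller (log2 change -0.35, SE 0.08, limma adjusted p = 0.0295). It lost its call when any 1 library was left out (limma adjusted p = 0.0562 to 0.188).

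Pcdhgc3 (37806364 to 37841873), which is expressed in astrocytes as well as neurons and promotes dendrite growth, did not pass the test. It stood at 62.7 and 57.5 FPKM in control bulbs against 67.8 and 66.9 in DCKO bulbs, so both DCKO libraries lay above both controls. The log2 change was 0.16 (95% confidence interval -0.02 to 0.35, limma adjusted p = 0.147). Its share of the summed gamma FPKM was 38.6% and 35.8% in control bulbs against 47.3% and 46.5% in DCKO bulbs, while that of Pcdhgc5 was 10.1% and 12.05% in control bulbs against 6.75% and 7.19% in DCKO bulbs. The difference between these isoforms was not tested.

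Of the 12 gamma A isoforms, 2 fell (16.7%) and 1 rose (8.33%), shares near the 14.3% and 13% of all tested genes. Pcdhga5 had the largest decrease of any tested member on this scale, from 2.9996 and 1.87 FPKM to 0.625 and 0.772 (log2 change -0.998, SE 0.20, 95% confidence interval -1.52 to -0.47, limma adjusted p = 0.0265). The 2 controls differed widely, and the call was lost without DCKO replicate 1 (limma adjusted p = 0.0893) or 2 (0.0662). Pcdhga6, the next gamma A gene along the chromosome, stood at 5.07 and 4.39 FPKM in control bulbs against 2.43 and 2.55 in DCKO bulbs (log2 change -0.71, SE 0.11, limma adjusted p = 0.0136), and lost its call without control replicate 1 (adjusted p = 0.0513 by limma).

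Pcdhga9 was the 1 member that rose, from 2.098 and 2.85 FPKM to 4.68 and 3.88 (log2 change 0.61, SE 0.16, 95% confidence interval 0.21 to 1.01, limma adjusted p = 0.0449). The call was lost without control replicate 1 (limma adjusted p = 0.141) and without DCKO replicate 1 (0.140) or 2 (0.0689). It was also lost with quantile normalization (adjusted p = 0.0687 by limma).

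Of the 6 tested gamma B isoforms 1 fell (16.7%) and none rose, beside 14.3% and 13% of all tested genes. That member was Pcdhgb5, which lies just before Pcdhga9 and is named here outside the rule for named genes; it stood at 2.06 and 2.58 FPKM in control bulbs against 1.29 and 1.31 in DCKO bulbs (log2 change -0.52, limma adjusted p = 0.0493). Pcdhgb5 lost its call in 8 of 12 alternatives, among them median-of-ratios scaling (limma adjusted p = 0.0504), quantile normalization (0.0617) and the fits without any 1 library (0.0551 to 0.188). Pcdhgb7, picked out after its values were seen, was higher in both DCKO libraries, at 3.90 and 3.93 FPKM in control bulbs against 4.33 and 4.88 in DCKO bulbs (log2 change 0.19, limma adjusted p = 0.211). Pcdhgb8, which GENCODE annotates as a polymorphic pseudogene, was not tested, with 0.717 and 0.362 FPKM in control bulbs against 0.286 and 0.179 in DCKO bulbs.

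**Figure D4:**
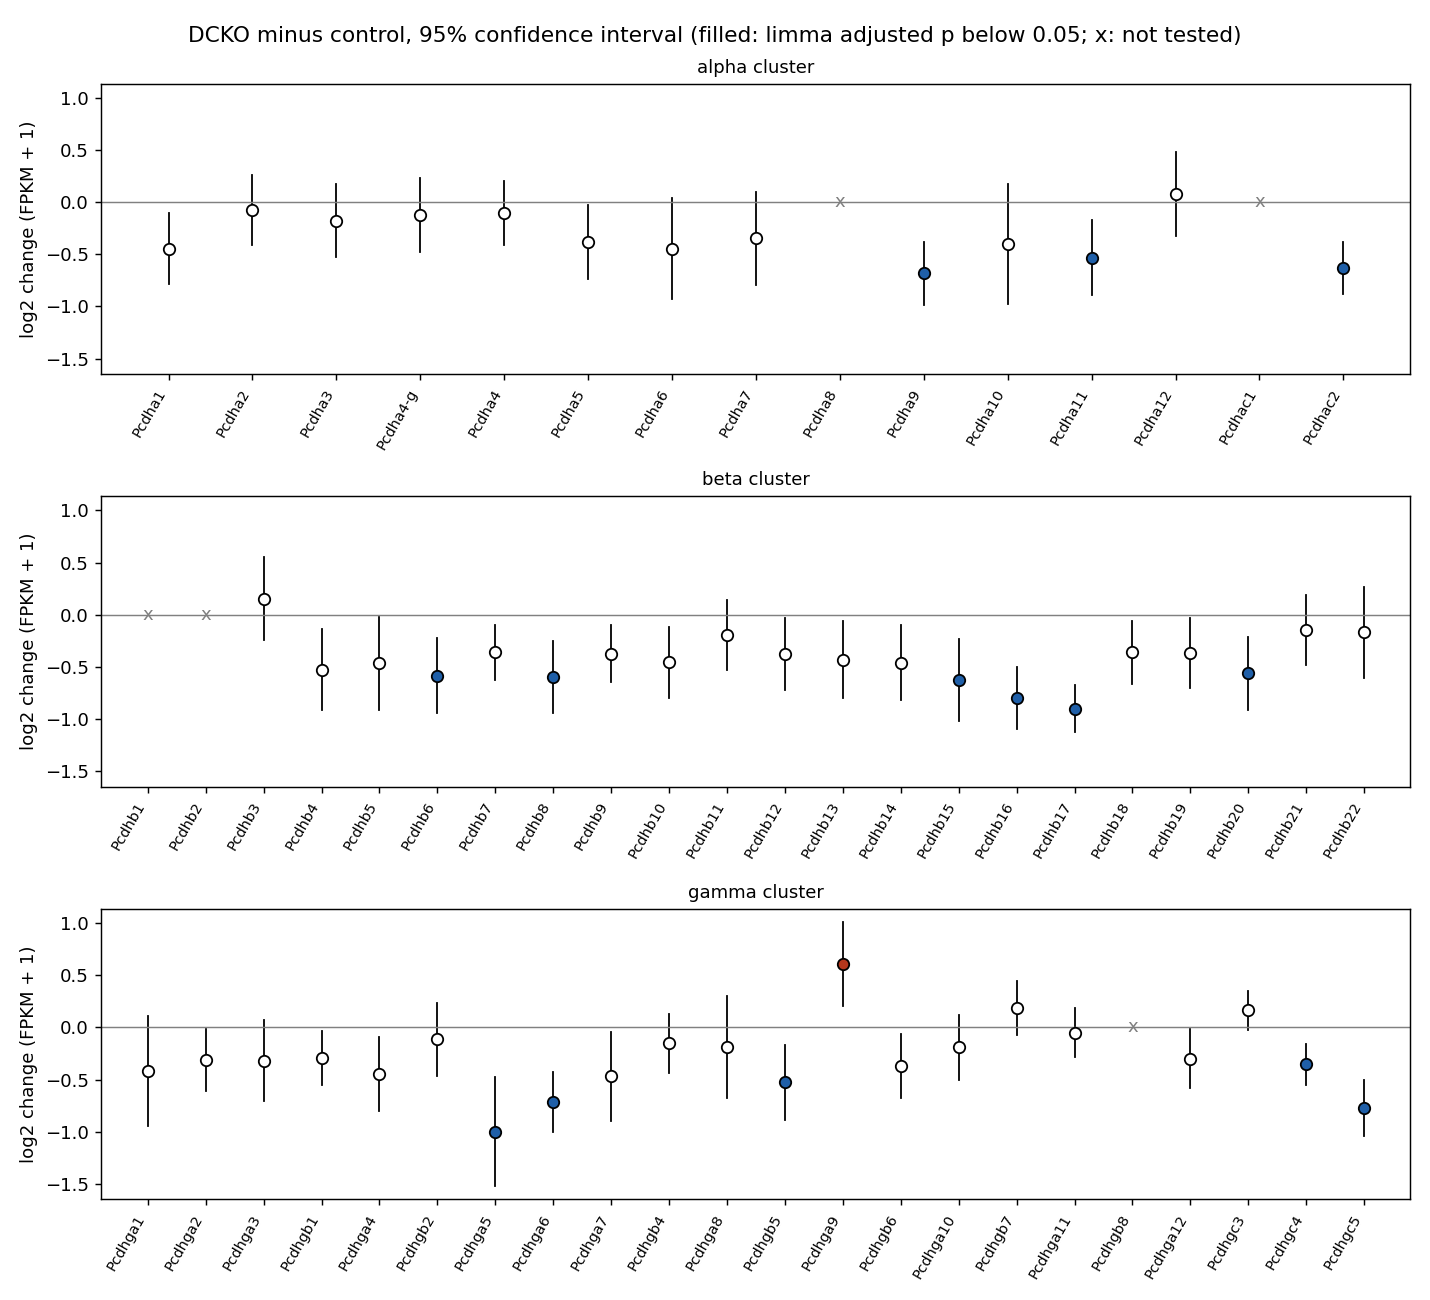
Log2 change on the log2(FPKM + 1) scale, DCKO minus control, with its 95% confidence interval, for each member in chromosome order, with blue points for members that fell and red for the 1 that rose (limma adjusted p below 0.05), white for those that did not pass and x for the 5 not tested. Pcdhga9 at 0.61 stands opposite to Pcdhga5 at -0.998 and Pcdhb17 at -0.90.

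Genes for factors known to act on the clustered protocadherin promoters were examined next. CTCF and cohesin bring a chosen promoter to its enhancer, and DNA methylation keeps others silent. Of 17 tested genes in this list 5 fell and none rose, while over all tested genes 14.3% fell and 13% rose. The median log2 change of the list was -0.22. The de novo DNA methyltransferase Dnmt3a, named outside the rule for named genes, stood at 42.8 and 44.6 FPKM in control bulbs against 34.8 and 35.4 in DCKO bulbs (log2 change -0.31, limma adjusted p = 0.0270). The maintenance methyltransferase Dnmt1 (-0.46), the cohesin subunit Smc3 (-0.38) and the cohesin loader subunit Mau2 (-0.36) fell too, with limma adjusted p of 0.0222 to 0.0330. Ctcf, also outside that rule, stood at 17.7 and 19.0 FPKM in control bulbs against 13.3 and 15.3 in DCKO bulbs (log2 change -0.34, limma adjusted p = 0.0514). Dnmt3b lay below the filter.

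Genes for binding partners and downstream enzymes were mostly without a call, with 1 of 22 lower and 2 higher and a median log2 change of 0.02. Over all tested genes 14.3% were lower and 13% higher by the same call. Ptk2b, which encodes the Pyk2 kinase, fell from 46.3 and 46.6 FPKM to 23.6 and 27.0 (log2 change -0.85, limma adjusted p = 0.00508). The protease Adam10, which sheds the extracellular part of gamma protocadherins, rose (0.30, limma adjusted p = 0.0359). Abi1, a subunit of the WAVE complex, rose as well (0.25, adjusted p = 0.0435 by limma).

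Of 11 tested genes inside or beside the clusters none passed the limma test in either direction, beside 27.3% of all tested genes. The median log2 change of these 11 genes was -0.03. Among them were the 2 of highest mean, Hdac3 (log2 change 0.19, limma adjusted p = 0.0841) and Hars (0.01, 0.932). Dnd1, named after its values were seen, was lower in both DCKO libraries, at 1.76 and 1.34 FPKM in control bulbs against 0.529 and 0.968 in DCKO bulbs (log2 change -0.55, limma adjusted p = 0.0943). Taf7, a single-exon gene between the beta and gamma clusters, stood at 2.89 and 3.10 FPKM in control bulbs against 2.57 and 3.06 in DCKO bulbs.

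The non-clustered protocadherins, which are genes outside these clusters, gave a median log2 change of -0.38 over 11 tested genes. That of the clustered members was -0.37. Both are on the log2(FPKM + 1) scale, which understates the change of low genes. Most of the 11 genes lay above the 2.15 FPKM median of the clustered members, so these medians cannot be compared directly. Of the 11 non-clustered genes 5 fell and 1 rose, while over all tested genes 14.3% fell and 13% rose. Pcdh8 fell from 15.7 and 12.6 FPKM to 1.95 and 2.97 (log2 change -2.14, limma adjusted p = 0.00366), a larger decrease on this scale than in any tested clustered member. Pcdh10 (-0.76), Pcdh20 (-0.54) and Pcdh1 (-0.53) fell as well, with adjusted p of 0.00411 to 0.0217 by limma, and so did Pcdh7, outside the rule for named genes (-0.38). Pcdh11x, also outside that rule, rose (0.54). No test compared both families.

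Markers of several cell types moved with the genotype, in a fit where 14.3% of all tested genes fell and 13% rose. The 9 granule cell and GABAergic interneuron markers all fell, and their sum went from 839.1 and 805.2 FPKM to 102.2 and 162.6. The 7 mitral and tufted cell markers all rose, from a sum of 743.8 and 810.8 FPKM to 1621 and 1442. Astrocyte markers rose for 5 of 7, from a sum of 691.2 and 697.0 FPKM to 1271 and 1101. Microglia markers rose for 4 of 6, ensheathing cell markers for 3 of 5, endothelial and mural markers for 2 of 6 and red blood cell genes for 2 of 4, while neuroblast markers fell for 3 of 5. General neuronal genes fell for 2 of 8 and rose for 1, and their sum was 1141 and 1221 FPKM in control bulbs against 1275 and 1127 in DCKO bulbs. None of the 7 oligodendrocyte lineage markers, 4 tested sensory neuron markers and 2 tested choroid plexus markers passed the limma test. No marker in these lists was at 0 in all libraries. In whole-bulb RNA fewer cells of a type and less RNA per cell cannot be told apart, and the part of these cell types in the protocadherin values was not tested.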

How the data were processed

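The members and lists were chosen with earlier results of these data known. The tools named per the submitters' processing notes are TopHat and Cufflinks 2.1.1, and the build is GRCm38.p4. Annotation, strand setting and treatment of shared reads: not given in the sources used here, so antisense transcripts within the clusters cannot be separated from the members. Per the file headers, the authors deposited FPKM and a count column per library. The count columns are treated as a signal that the authors scaled by 1 factor per library, and no count model was applied. Columns were mapped by the codes in the sample descriptions.

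The fit was limma 3.58.1 (R 4.3.3) on log2(FPKM + 1), DCKO minus control, two-sided, its variance prior following mean expression, for genes averaging 1 FPKM or more, with Benjamini-Hochberg adjustment over 13434 genes. It was run on simulated data with errors drawn from its own variance model and set log2 changes of 1 and 2. No smaller change was simulated, and every called member changed by less than 1 on this scale. Named genes are Sp8, Sp9, the C-type isoforms, the 12 called members of largest change per direction, the 3 of highest mean per cluster and, from each other list of general knowledge, up to 4 called genes of largest change or the 2 of highest mean; the cell type lists are given as counts. Member order came from RefSeq (GRCm38.p6) and gene models from GENCODE M21, matched through RefSeq accessions. Wapl is listed under an older symbol. The values of 1 gene of the promoter list are not reported here.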

Additional observations from a re-analysis of the deposited data

How the results depend on the processing

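No member with a call changed direction in any alternative, while 5 without one did in at least 1 (Pcdha2, Pcdha12, Pcdhb22, Pcdhga8 and Pcdhga11), and the sums of the alpha and beta clusters stayed within the spread between libraries. The number of members that fell was 14 in the reported fit and 8 with no filter. It was 3 with a filter at a mean of 5 FPKM (where 6 members were tested), 22 with no intensity trend and 24 on scaled counts. The share of all tested genes called is given for the reported fit only, so it is not known here whether that share moved likewise. By cluster, the beta count was 6, and it became 13 with no intensity trend, 14 on scaled counts and 0 at 5 FPKM, where no beta member was tested. The alpha count, 3 in the reported fit, was 5 on scaled counts and 1 at 5 FPKM, where 1 alpha member was tested. The gamma count, 5 in the reported fit, was 2 with no filter and 2 at 5 FPKM, where 5 gamma members were tested. The 1 higher gamma member, Pcdhga9, lost its call with no filter and with quantile normalization, and at 5 FPKM it was not tested. The gamma sum in DCKO over control was 0.889, and 0.923 on scaled counts.

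With 1 library left out, where the lone library is assumed to vary like the pair, 6 to 9 members fell and 0 to 1 rose. The alpha cluster had 0 to 3 lower, the beta cluster 2 to 3 and the gamma cluster 2 to 4, with 0 to 1 gamma member higher. The genes of the other lists had 17 to 29 lower and 18 to 25 higher. With the replicate number as a block, 7 members fell (2 alpha, 2 beta, 3 gamma) and 0 rose. The share of all tested genes called with the block or with 1 library left out is not given here. Whether the counts from those fits lie above that share therefore cannot be read from them. The deviations of same-numbered libraries had a correlation over genes of -0.02. With 2 libraries per group this cannot show whether the samples were paired, and the labels do not state a pairing. A count test on recovered fragments was not run, because the alpha and gamma values are not whole. Depth limits the low members: the beta calls rest on as few as 28 fragments in a library.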
